A study of Mus musculus with 4 samples.

Results

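The tumour necrosis factor (TNF) superfamily of ligands and receptors was examined in ovarian granulosa cell (GC) transcriptomes of Hdac3cKO and Hdac3flox/flox mice. Members were the rows of the deposited table whose gene symbol begins with Tnfsf or Tnfrsf and a digit, or is Tnf, Lta, Ltb, Ltbr, Fas, Fasl, Cd27, Cd40, Cd40lg, Eda, Edar, Eda2r or Ngfr. This rule took 44 of 28611 rows, namely 16 ligands, 27 receptors and 1 antisense transcript, Tnfsf13os. The rule used names only and no measured value, but the members and gene lists were chosen with earlier results of these data known. Tnfsf4 was not analysed here.

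The Hdac3cKO mice were C57BL/6 females of genotype Hdac3flox/flox; Foxl2-CreERT2, in which tamoxifen switches on a Cre recombinase under the control of Foxl2, a transcription factor gene active in GCs. The controls were C57BL/6 Hdac3flox/flox females without the transgene, so both groups carried the floxed alleles and both received 1 dose of tamoxifen, given on day 18 after birth at 20 mg per kg, and were collected at 24 days. The design text gives 2 mice per group and each group has 2 libraries, so that p-values measure the spread between these libraries. The labels name GCs as the cell type, whereas the extraction protocol names whole ovaries, and the markers of theca cells, oocytes, stroma, vessels and macrophages were all present.

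The values are RPKM, reads scaled to gene length and to the library total, and the library totals behind them were 17621129 to 18452073 reads. Hdac3, the targeted gene, was measured at 24.4 and 24.4 RPKM in Hdac3flox/flox and at 19.4 and 19.2 RPKM in Hdac3cKO, a log2 fold change of −0.34 (limma adjusted p = 0.00935). The deletion was described as incomplete in this mouse model. The study also reported a marked fall of HDAC3 protein in GCs on western blots, at a later time after tamoxifen. The RNA value here may include other ovarian cells, so it does not give the size of the deletion within GCs. GC markers such as Foxl2, Fshr and Inha were high in all libraries, and 12 of 12 GC markers passed the expression filter.

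TNF family ligands are mostly membrane-anchored proteins that act as trimers on a neighbouring cell or after being cut free. Their receptors fall into those with an intracellular death domain, which can recruit caspases, those that bind TRAF adaptor proteins and turn on NF-kB and MAP kinases, and decoys that bind a ligand without passing on a signal. Tnfsf11 encodes RANKL, the cytokine that drives osteoclast formation in bone and alveolar growth in the mammary gland through its receptor RANK (Tnfrsf11a), and that is held back by the decoy osteoprotegerin (Tnfrsf11b). TNF itself and Fas ligand have been studied in the ovary in relation to follicle atresia, ovulation and luteal regression.

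A gene entered the test when it reached at least 0.5 RPKM in at least 2 libraries, and 22 of the 44 members did, namely 6 ligands, 15 receptors and the antisense transcript. Of these, 3, Tnfsf11, Tnfrsf1a and Tnfrsf1b, were lower in Hdac3cKO at an adjusted p under 0.05, and 0 were higher. In limma 6 members had an unadjusted p under 0.05 with a lower value in Hdac3cKO and 1 with a higher value. The share of all tested genes at this unadjusted threshold is not given here, so these counts have no background to be read against. Voom on recovered reads also called 0 members higher. The 3 called members were 13.6% of the 22 tested. Over all 15528 tested genes, 18.7% were called in either direction, 11% lower and 7.68% higher, so the share of members called lay below the background for either direction and close to that for lower calls. Other settings called 2 of 44 members without a filter (3.33% of all genes), 4 of 14 with at least 1 RPKM required of every library (27%), 3 of 27 with at least 10 reads required of 2 libraries (20.5%), 2 of 22 with median-of-ratios scaling (19.2%) and 4 of 22 with voom (29.8%). The median log2 fold change was −0.15 over the 22 tested members and −0.04 over all tested genes. The values of the groups did not overlap for 14 of the 22 members (63.6%) and for 64.5% of all tested genes. The one member that stood far from the rest was Tnfsf11.

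**Figure D1:**
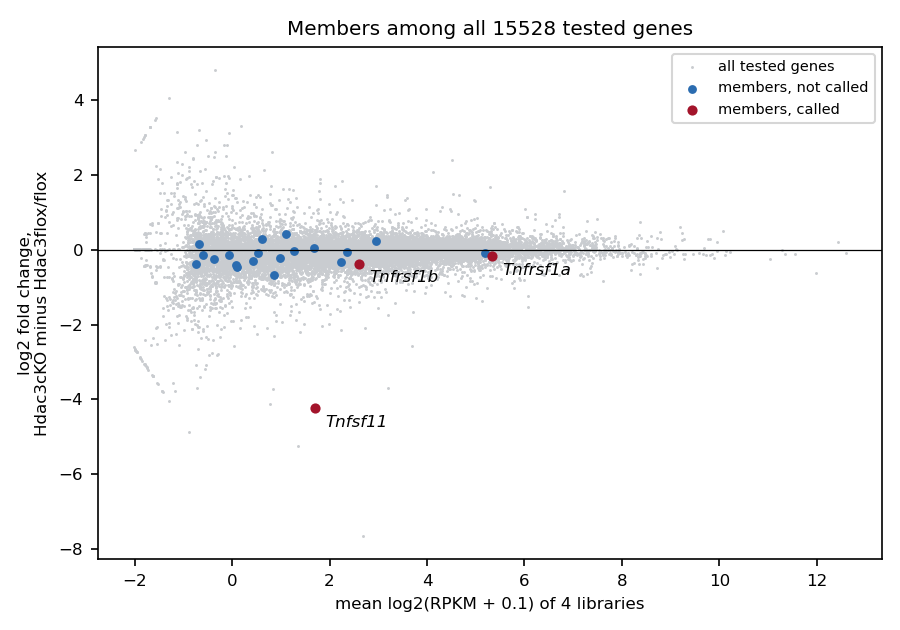
Log2 fold change (Hdac3cKO minus Hdac3flox/flox, y axis) of all 15528 tested genes against their mean log2(RPKM + 0.1) over the 4 libraries (x axis), with the 22 tested members in colour. Tnfsf11 lies at −4.23, while the other 21 members lie within the main band of genes between −0.68 and 0.43.

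Tnfsf11 was the most abundant ligand of the family in the control libraries and fell steeply in Hdac3cKO. It was measured at 15.02 and 13.0 RPKM in the Hdac3flox/flox libraries, from 615 and 534 reads. In the Hdac3cKO libraries it was measured at 0.751 and 0.558 RPKM, from 31 and 22 reads. Both knockout libraries thus lay far below both control libraries, and the difference exceeded the spread within either group. The means were 14.0 ± 1.42 and 0.655 ± 0.136 RPKM (SD, n = 2 each), a 21.4-fold difference. The log2 fold change on the log2(RPKM + 0.1) scale was −4.23 (standard error 0.159, 95% interval −4.66 to −3.81, limma adjusted p = 0.00267 with Benjamini-Hochberg adjustment over all tested genes). From the reads alone, the level in Hdac3cKO was 0.0469 times that in Hdac3flox/flox (exact 95% interval 0.0349 to 0.0617, counting error only). Among the 15528 tested genes this was the 4th largest fall, while 1.37% of tested genes were called at least 2-fold lower. In bulk RNA, fewer cells that make a transcript and less transcript per cell cannot be told apart. The fall was called in each of 8 alternatives that kept all 4 libraries and tested the gene, with log2 fold changes of −4.41 to −3.18 and adjusted p of 5.93e-07 to 0.0272. With 1 library left out the log2 fold change stayed between −4.42 and −4.05, but the call held only without Hdac3flox/flox replicate 1 (adjusted p = 0.0486). It did not hold without Hdac3flox/flox replicate 2 (adjusted p = 0.0586), Hdac3cKO replicate 1 (adjusted p = 0.0833) or Hdac3cKO replicate 2 (adjusted p = 0.0771).

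The make-up of the ligand transcripts differed accordingly. Tnfsf11 supplied 67.3% and 66.2% of the summed RPKM of the 16 ligands in the Hdac3flox/flox libraries, and 10.02% and 9.24% in the Hdac3cKO libraries. Its rank among the ligands was 1 in both control libraries and 4 in both knockout libraries. The summed ligand level was 22.3 and 19.7 RPKM in Hdac3flox/flox and 7.50 and 6.04 RPKM in Hdac3cKO. Without Tnfsf11 the sum of the other ligands was 7.30 and 6.65 RPKM against 6.75 and 5.48 RPKM, so that the groups overlapped.

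**Figure D2:**
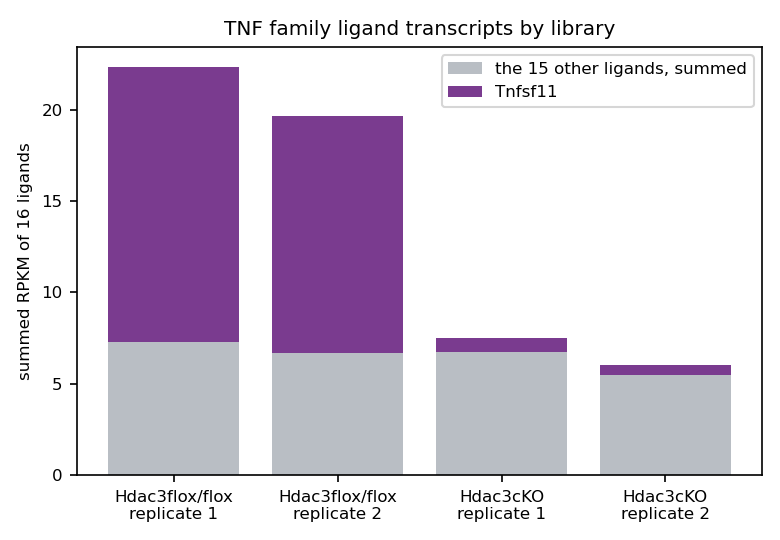
Summed RPKM of the 16 ligands in each library (y axis, from 0), with Tnfsf11 in purple and the other 15 ligands in grey. Tnfsf11 made up 67.3% and 66.2% of the bar in the Hdac3flox/flox libraries and 10.02% and 9.24% in the Hdac3cKO libraries, while the grey part stayed between 5.48 and 7.30 RPKM.

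Tnfsf11 (ENSMUSG00000022015.8) lies on the minus strand of mouse chromosome 14, from 78277445 to 78308043 on GRCm38. The 250 bases before its start, chr14:78308044-78308293 in the GRCm38.p6 annotation of RefSeq, are printed because this promoter belongs to the member with the largest change. They are compared with the 250 bases before Tnfrsf1b, chr4:145246871-145247120, the called receptor with the larger change. Both are read 5′ to 3′ on the minus strand, the strand of the genes, and capitals mark matches to the motifs described after them.
Tnfsf11: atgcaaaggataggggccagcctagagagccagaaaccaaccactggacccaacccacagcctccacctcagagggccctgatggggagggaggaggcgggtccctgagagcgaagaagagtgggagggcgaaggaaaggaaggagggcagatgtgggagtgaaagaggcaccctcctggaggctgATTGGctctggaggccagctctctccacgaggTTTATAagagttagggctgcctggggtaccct
Tnfrsf1b: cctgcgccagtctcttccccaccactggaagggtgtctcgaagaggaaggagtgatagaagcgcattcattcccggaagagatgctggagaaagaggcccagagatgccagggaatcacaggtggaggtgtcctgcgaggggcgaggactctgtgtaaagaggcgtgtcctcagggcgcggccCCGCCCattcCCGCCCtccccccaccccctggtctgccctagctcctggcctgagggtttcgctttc
The motifs were searched on both strands in the same window of 32851 promoters, of which 35 belong to members. The Tnfsf11 window held 1 TATA box (TATAAA), read on the opposite strand as TTTATA, whose first base is 32 bases before the start. This motif is found in 12.4% of all windows and in those of 7 members. The window also held 1 CCAAT box (CCAAT, here as ATTGG) at 64 bases before the start, a motif found in 33.8% of all windows and in those of 5 members. The Tnfrsf1b window held neither, and held 2 SP1 sites (GGGCGG, here as CCGCCC) at 67 and 57 bases before the start, a motif found in 32.7% of all windows and in those of 18 members. A FOXO site (GTAAACA), found in 3.17% of all windows, and a full cAMP response element (TGACGTCA), found in 1.55%, matched in neither window. A match describes letters only.

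No gene near Tnfsf11 fell to a like extent. Of 8 tested genes whose start lies within 1000 kb, 0 were lower at an adjusted p under 0.05 and 1, Rgcc, was higher, with a log2 fold change of 0.58. At an unadjusted p under 0.05 there were 2 lower and 1 higher, and voom called 1 lower and 1 higher. The 8 values ranged from −0.27 to 0.58. Akap11, the nearest tested gene at 229 kb, was measured at 11.9 and 11.5 RPKM in Hdac3flox/flox and at 10.8 and 11.1 RPKM in Hdac3cKO, a log2 fold change of −0.10 that was not called (limma adjusted p = 0.207). It was expressed in all 4 libraries at a level close to that of Tnfsf11 in the controls.

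**Figure D3:**
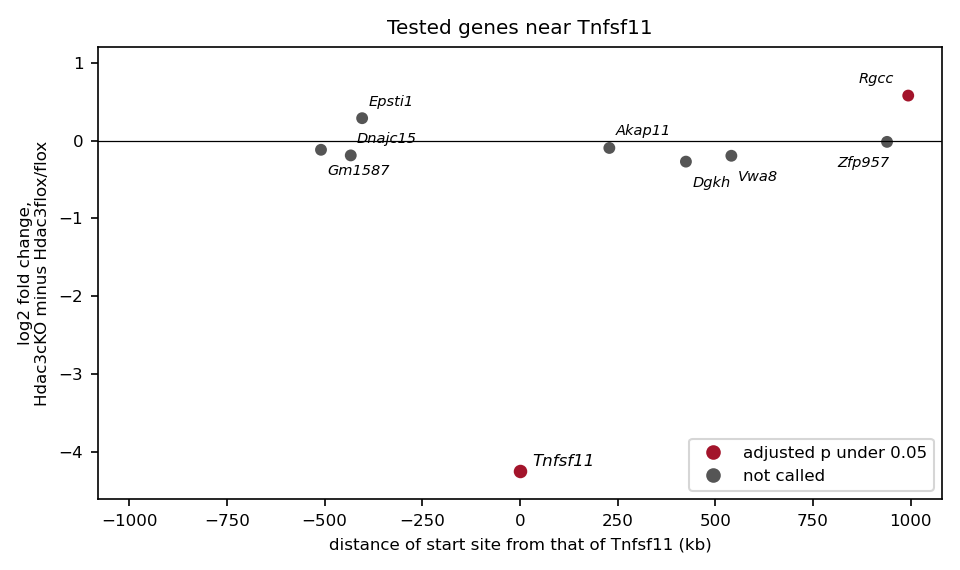
Log2 fold change (Hdac3cKO minus Hdac3flox/flox, y axis) of tested genes by the distance of their start site from that of Tnfsf11 in kb (x axis), with called genes in red. Tnfsf11 lies at −4.23 and its 8 neighbours lie between −0.27 and 0.58.

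The other 5 ligands that passed the filter were of low level and none was called. Tnfsf12, which encodes TWEAK, a ligand linked to tissue repair, was the second most abundant in the controls at 2.24 and 2.16 RPKM, against 1.57 and 1.12 RPKM in Hdac3cKO. Its groups did not overlap and its log2 fold change was −0.68 (95% interval −1.18 to −0.19, limma adjusted p = 0.0711). It was called in 1 alternative, a filter of at least 1 RPKM in every library (adjusted p = 0.0412). Tnfsf9, which encodes 4-1BBL, a costimulator of T cells, was the third and had the only positive value among tested ligands. It was measured at 1.95 and 1.60 RPKM against 2.69 and 2.17 RPKM, a log2 fold change of 0.43 (limma adjusted p = 0.143). In Hdac3cKO these ligands therefore ranked above Tnfsf11.

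Tnfsf10, which encodes TRAIL, a ligand of death receptors, was measured at 1.19 and 1.06 RPKM in Hdac3flox/flox and at 0.813 and 0.830 RPKM in Hdac3cKO. The groups did not overlap, but its log2 fold change of −0.41 did not pass the test (95% interval −0.86 to 0.05, limma adjusted p = 0.169). The remaining tested ligands were Eda, ectodysplasin of skin appendages, with a log2 fold change of −0.26, and Tnfsf13, the B-cell factor APRIL, with −0.39. Neither passed the test, and both stood below 0.8 RPKM in every library.

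The ligands best known from inflammation and cell death were barely detected. Tnf gave 5 and 1 reads in the Hdac3flox/flox libraries and 1 and 1 reads in the Hdac3cKO libraries, which is 0.0331 to 0.167 RPKM. The groups overlapped, and at this depth no difference was detectable (read ratio 0.339, exact 95% interval 0.0334 to 1.89). Fasl, which encodes Fas ligand, gave 1 read in 1 Hdac3cKO library and 0 in the other 3. Tnfsf8, Tnfsf14 and Cd40lg likewise gave 1 read in all.

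The filter left out 10 ligands. Tnfsf13b, which encodes the B-cell survival factor BAFF, had the most reads of these, 17 and 27 in the controls against 10 and 7 in the knockout. Its groups did not overlap, and the read ratio was 0.393 (exact 95% interval 0.210 to 0.701, counting error only), but when genes with 10 reads in 2 libraries were tested its limma adjusted p was 0.115. Lta, lymphotoxin alpha, gave 0 and 1 reads in the controls against 4 and 1 in the knockout, a read ratio of 5.08 whose exact interval ran from 0.569 to 240. These counts are too low to separate the groups.

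**Figure D4:**
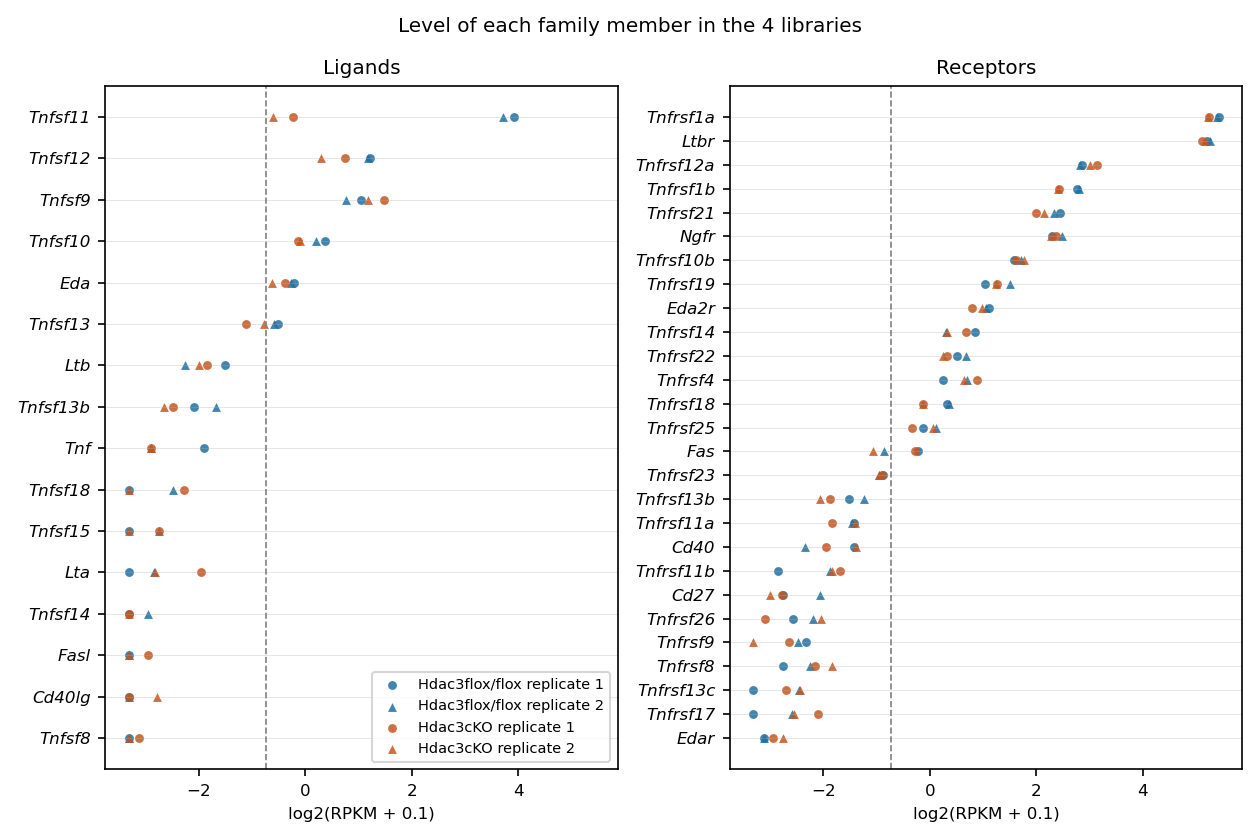
Level of each ligand and receptor in the 4 libraries on the log2(RPKM + 0.1) scale (x axis), ordered by the mean of the Hdac3flox/flox libraries, with a dashed line at the filter of 0.5 RPKM. Tnfsf11 is the only gene above the filter whose knockout and control points lie far apart, and 22 members lie at or below 0.441 RPKM in every library.

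Receptor transcripts were more abundant than ligand transcripts, and their differences were small. The summed RPKM of the 27 receptors was 119 and 121 in Hdac3flox/flox and 111 and 111 in Hdac3cKO, and the 2 highest, Tnfrsf1a and Ltbr, held 65.5% to 67.0% of it in each library. Of the 15 receptors tested, 2 were called, both lower. They are the pair of receptors for TNF.

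Tnfrsf1a encodes TNFR1, the death-domain receptor that carries most responses to soluble TNF, and lies on chromosome 6 from 125349362 to 125362484 on the plus strand (GRCm38). It was the most abundant member of the family, at 43.1 and 42.0 RPKM in Hdac3flox/flox and 37.9 and 37.5 RPKM in Hdac3cKO. Both knockout libraries lay below both controls by a margin wider than the spread within the groups. The log2 fold change was nevertheless small, at −0.17 (standard error 0.031, limma adjusted p = 0.0293). The call was lost without a filter (adjusted p = 0.0627) and with median-of-ratios scaling (log2 fold change −0.13, adjusted p = 0.0566), and with any 1 library left out (adjusted p = 0.115 to 0.133). Of 40 tested genes within 1000 kb of its start, 3 were lower and 4 higher, beside 11% and 7.68% of all tested genes. At an unadjusted p under 0.05, 7 were lower and 10 higher. Voom called 6 lower and 11 higher, and it called 29.8% of all tested genes in either direction.

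Tnfrsf1b encodes TNFR2, which has no death domain, binds TRAF2 and responds mainly to membrane-bound TNF. It lies on chromosome 4 from 145213463 to 145246870 on the minus strand (GRCm38), just downstream of the promoter printed beside that of Tnfsf11. It was measured at 6.72 and 6.90 RPKM in Hdac3flox/flox and at 5.31 and 5.22 RPKM in Hdac3cKO. The means of 6.81 ± 0.122 and 5.26 ± 0.065 RPKM (SD, n = 2 each) gave a log2 fold change of −0.37 (standard error 0.054, 95% interval −0.51 to −0.22, limma adjusted p = 0.0205). The call held in all 9 alternatives that kept the 4 libraries (adjusted p up to 0.0491) and was lost with any 1 library left out (adjusted p = 0.1004 to 0.123). Of 9 tested genes within 1000 kb, 2 were lower and 0 higher, with a log2 fold change of −0.34 for Vps13d and −1.23 for Dhrs3, a retinaldehyde reductase (1 higher and 2 lower at an unadjusted p under 0.05, 0 and 2 with voom).

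Endothelial cells and macrophages are known to express Tnfrsf1b, and their markers were counted in the same libraries. Beside the marker counts stand all tested genes, of which 11% were called lower and 7.68% higher. Of 11 tested endothelial markers 7 were lower and 0 higher (8 and 0 at an unadjusted p under 0.05, 7 and 0 with voom), among them Cdh5 and Cldn5, and their summed level was 126 and 124 RPKM in Hdac3flox/flox and 92.4 and 93.4 RPKM in Hdac3cKO. Of 9 tested markers of macrophages and monocytes 1, C1qa, was lower and 8 were not called, and the summed level of the list was 58.3 and 56.0 RPKM against 48.8 and 48.1 RPKM. The part of these markers in the lower level of Tnfrsf1b was not tested. Of 12 stroma markers 6 were lower and 1 higher, with sums of 726 and 720 RPKM against 675 and 687 RPKM. Of 9 tested markers of smooth muscle and pericytes 5 were lower, with sums of 497 and 488 RPKM against 347 and 404 RPKM. T cells, a known source of RANKL, were represented by very few reads, since 13 of 14 T and NK cell markers stood below 0.5 RPKM in every library and the list summed to 2.32 and 2.32 RPKM against 2.19 and 2.31 RPKM. No marker of any list that had a row lacked reads in all 4 libraries. Of 12 theca cell markers 6 were lower and 1 higher, with sums of 3811 and 3576 RPKM against 3182 and 3105 RPKM. Of 12 oocyte markers 1 was higher and 0 lower (5 and 0 at an unadjusted p under 0.05, 5 and 0 with voom), with sums of 275 and 277 RPKM against 338 and 299 RPKM. The part of any of these cell types in the fall of Tnfsf11 was not tested. For GCs themselves, 6 of 12 markers were higher and 3 lower, and the sums were 8708 and 8244 RPKM against 10216 and 9814 RPKM. Each sum mostly follows its most abundant markers. The highest single marker reached 6094 RPKM in the GC list, 2355 RPKM in the theca list and 377 RPKM in the smooth muscle list. The sums therefore do not measure the amount of a cell type. With voom, 0 markers of macrophages and monocytes were higher and 2 lower, and of stroma 2 were higher and 6 lower. Smooth muscle and pericytes had 1 higher and 5 lower with voom, theca cells 3 and 7, and GCs 6 and 3.

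The other death-domain receptors were not called. Tnfrsf21, which encodes DR6, was measured at 5.38 and 4.98 RPKM in Hdac3flox/flox and at 3.90 and 4.32 RPKM in Hdac3cKO, without overlap. Its log2 fold change was −0.33 (limma adjusted p = 0.0641), and it was called with a filter of at least 1 RPKM in every library (adjusted p = 0.0447) and with voom (adjusted p = 0.0376). Fas, the receptor of Fas ligand, was low and its groups overlapped, at 0.758 and 0.454 RPKM against 0.722 and 0.378 RPKM. Its log2 fold change of −0.14 had a wide interval, from −1.23 to 0.96 (limma adjusted p = 0.845), from at least 12 to 25 reads per library. Ngfr, the low-affinity neurotrophin receptor, Tnfrsf10b, the receptor of TRAIL in mouse, and Tnfrsf25, which encodes DR3, overlapped between the groups, with log2 fold changes of −0.06, 0.05 and −0.13. Edar, the receptor of ectodysplasin, gave 1 and 1 reads against 2 and 3 reads.

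Among receptors that bind TRAF proteins, Ltbr was the most abundant. It encodes the lymphotoxin beta receptor and was measured at 36.9 and 38.3 RPKM in Hdac3flox/flox and at 34.6 and 36.0 RPKM in Hdac3cKO, a log2 fold change of −0.09 that did not pass the test (95% interval −0.20 to 0.01, limma adjusted p = 0.166). Its ligand Ltb was near the limit of detection, with 3 to 7 reads per library. Tnfrsf12a, which encodes Fn14, the receptor of TWEAK, was the third most abundant receptor, at 7.15 and 6.96 RPKM against 8.72 and 7.96 RPKM. Its log2 fold change of 0.24 was positive, without overlap between the groups, and missed the threshold (limma adjusted p = 0.0721), while that of its ligand Tnfsf12 was −0.68. Neither of this pair was called.

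The remaining TRAF-binding receptors that were tested stood between 0.818 and 2.74 RPKM. Tnfrsf18, which encodes GITR of regulatory T cells, was measured at 1.15 and 1.18 RPKM against 0.818 and 0.819 RPKM, a log2 fold change of −0.46 with an adjusted p of 0.119 from limma. Eda2r, the other ectodysplasin receptor, had a log2 fold change of −0.21 without overlap between the groups. Tnfrsf4 (0.29), Tnfrsf14 (−0.08) and Tnfrsf19 (−0.03, or 0.02 with median-of-ratios scaling) overlapped between the groups in their levels. None of these 5 passed the test.

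RANK and osteoprotegerin, the receptor and the decoy of RANKL, were both below the filter. Tnfrsf11a gave 30 and 29 reads in the controls against 20 and 29 in the knockout, or 0.274 and 0.264 against 0.181 and 0.275 RPKM. The groups overlapped, and the read ratio was 0.844 (exact 95% interval 0.566 to 1.25). Tnfrsf11b gave 2 and 9 reads against 11 and 9 reads, with a ratio of 1.85 whose exact interval of 0.844 to 4.27 includes 1. On the scale of RPKM, which is per length, the level of Tnfsf11 in the control libraries was thus far above those of Tnfrsf11a and Tnfrsf11b, whereas in the knockout libraries all 3 were under 1 RPKM. Both decoy-like receptors for TRAIL known only from mouse were low. Tnfrsf22 was tested and not called (log2 fold change −0.31, limma adjusted p = 0.211), and Tnfrsf23 stood at 0.413 to 0.441 RPKM in all 4 libraries.

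Of the 22 members below the filter, 15 had fewer than 10 reads in every library, and their reads over the 4 libraries ranged from 1 to 123. Several receptors of lymphocytes were among them. Cd27, a costimulatory receptor, gave 2 and 6 reads against 2 and 1 reads (read ratio 0.381, exact 95% interval 0.0651 to 1.59). Tnfrsf9, which encodes 4-1BB, gave 5 and 4 against 3 and 0 reads (ratio 0.339, exact interval 0.059 to 1.36). Tnfrsf17, which encodes BCMA of plasma cells, gave 0 and 1 against 2 and 1 reads (ratio 3.05, exact interval 0.245 to 160). All 3 intervals include 1, and none of these differences was detectable at this depth. Tnfrsf13b, Tnfrsf13c, Tnfrsf8, Cd40 and Tnfrsf26 gave 0 to 17 reads per library.

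**Figure D5:**
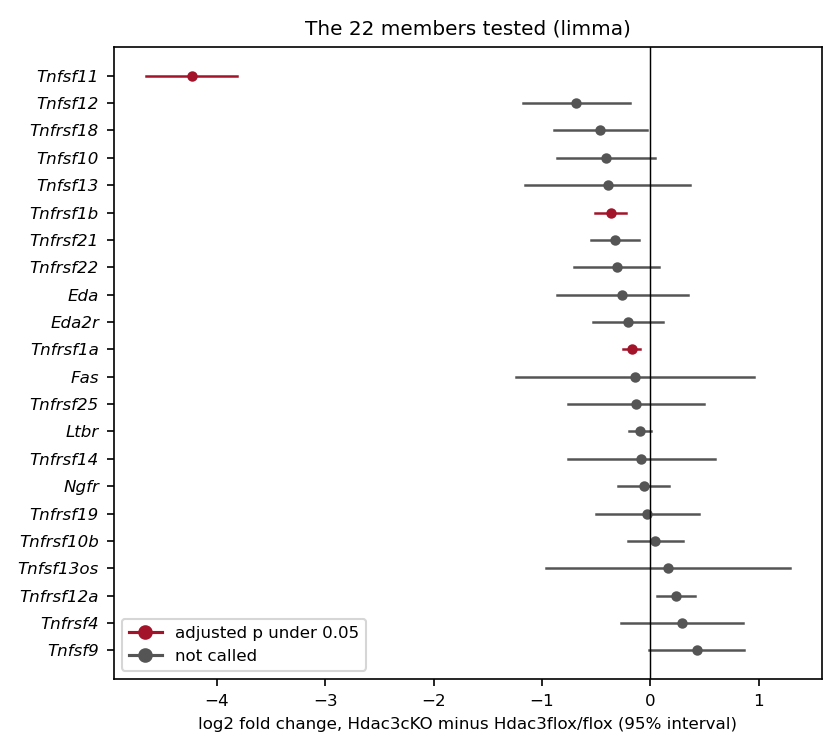
Log2 fold change (Hdac3cKO minus Hdac3flox/flox, x axis) with its 95% interval from limma for the 22 members tested, called members in red. The interval of Tnfsf11, −4.66 to −3.81, lies apart from all others, and those of Tnfrsf1a and Tnfrsf1b lie below 0.

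Genes that act with the family were then counted by role, using lists that hold 115 genes that are not members. Of the 97 that were tested, 13 were lower and 3 higher, which is 16.5% called beside 18.7% of all tested genes, and their median log2 fold change was −0.09. Of 37 tested adaptors and kinases, 1 was higher and 2 lower, with a median log2 fold change of −0.06. Ripk2, a kinase that links NOD receptors to NF-kB, rose by 0.30 on the log2 scale (limma adjusted p = 0.0302). Bid, which links caspase-8 to mitochondria, fell by 0.34, and Sharpin, a subunit of the linear ubiquitin ligase at TNFR1, fell by 0.23. The most abundant genes of this list, Map3k5 (−0.13) and Map3k7 (0.16), were not called.

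Of 15 NF-kB subunits and inhibitors, 2 were lower, Tnip1 (log2 fold change −0.27) and Tnip2 (−0.29), both encoding partners of the inhibitor A20, and the median of the list was −0.07. Rela, the subunit p65, was measured at 31.6 and 33.7 RPKM in Hdac3flox/flox and at 33.5 and 32.5 RPKM in Hdac3cKO, with overlap between the groups. Nfkbia, an inhibitor that NF-kB itself induces, was not called (log2 fold change −0.07). Rel, another subunit, was measured at 3.68 and 4.66 RPKM in Hdac3flox/flox and at 3.01 and 3.16 RPKM in Hdac3cKO, without overlap. Its log2 fold change was −0.41 (limma adjusted p = 0.0984). Bcl3, of the same list, went the other way, also without overlap. It was measured at 1.24 and 1.61 RPKM in Hdac3flox/flox and at 1.91 and 2.18 RPKM in Hdac3cKO. Its log2 fold change of 0.50 was not called either (limma adjusted p = 0.114). None of the DNA-binding subunits was called in limma in either direction. At an unadjusted p under 0.05, 1 gene of the list was higher and 3 lower, and voom called 0 higher and 4 lower.

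Of 14 tested genes that TNF is known to induce, 3 were lower and 1 higher, beside 11% and 7.68% of all tested genes. Their median log2 fold change was −0.10. Nos2, inducible nitric oxide synthase, was measured at 8.49 and 9.90 RPKM in Hdac3flox/flox and at 5.15 and 4.26 RPKM in Hdac3cKO, a log2 fold change of −0.95 (limma adjusted p = 0.0164). Cxcl1, a neutrophil chemokine, fell from 1.75 and 2.85 RPKM to 0.694 and 0.272 RPKM (log2 fold change −2.10, limma adjusted p = 0.0437). Vcam1, an adhesion molecule of vessels, fell by 0.65 on the log2 scale, and Ier3, an early response gene, rose by 0.47. Sod2 (0.04) and Irf1 (−0.19), the most abundant of those not called, did not pass the test, and 8 targets, Il6, Ptgs2 and Ccl2 among them, were below the filter. Tnf itself, as described, gave 1 to 5 reads per library.

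Along the RANKL axis, 9 of 13 genes were tested and 2 were lower, Tnfsf11 and Fos, beside 11% of all tested genes. At an unadjusted p under 0.05, 0 were higher and 5 lower, and voom called 0 higher and 2 lower. Tnfsf11 is the member already described, so Fos was the only further gene called. The median log2 fold change of −0.24 includes Tnfsf11. Fos, which encodes a subunit of AP-1 needed for osteoclast formation, fell from 22.4 and 23.5 RPKM to 10.9 and 9.84 RPKM, a log2 fold change of −1.14 (limma adjusted p = 0.00445). Src (−0.18) and Lgr4 (−0.24), the latter another receptor of RANKL, were not called. Lgr4 was measured at 10.9 and 12.0 RPKM in Hdac3flox/flox and at 8.92 and 10.4 RPKM in Hdac3cKO. It was thus far more abundant than RANK.

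Of 17 tested genes known to regulate Tnfsf11 in bone or mammary gland, 5 were lower and 1 higher. Over all tested genes, 11% were called lower and 7.68% higher. The median log2 fold change of the list was −0.08. The part of these genes in the fall of Tnfsf11 was not tested. Bmp2, a bone morphogenetic protein, had the largest change among them, from 7.37 and 7.83 RPKM to 2.42 and 2.49 RPKM (log2 fold change −1.59, limma adjusted p = 0.00321). Prlr, the prolactin receptor, was measured at 13.1 and 13.0 RPKM against 10.5 and 10.1 RPKM, a log2 fold change of −0.34 (limma adjusted p = 0.0156). Pth1r, the receptor of parathyroid hormone, fell by 0.54, Mef2c by 0.56 and Klf6 by 0.49 on the log2 scale, and Stat3 rose by 0.23. Pgr, the progesterone receptor through which Tnfsf11 is induced in the mammary gland, was below the filter at 0.435 and 0.497 RPKM in Hdac3flox/flox and 0.374 and 0.259 RPKM in Hdac3cKO. Vdr, the vitamin D receptor, was below it too. Hif1a (0.14) was not called.

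The proteases that free or cut TNF family proteins were not called in limma, with 0 of 8 tested genes at an adjusted p under 0.05, while 2 were higher and 2 lower at an unadjusted p under 0.05 and voom called 2 higher and 1 lower. Their median log2 fold change was −0.09. Adam10 was measured at 57.0 and 56.7 RPKM against 53.4 and 55.9 RPKM, and Mmp14 at 40.2 and 40.6 RPKM against 43.4 and 46.8 RPKM. Adam17, the TNF convertase that also cuts RANKL, had a log2 fold change of −0.11 (limma adjusted p = 0.145).

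Some rows cannot be separated from overlapping genes. Tnfsf12 and Tnfsf13 share 48.3% and 60.0% of their exon bases with the readthrough gene Tnfsfm13 on the same strand, so their values are uncertain. Tnfsf13os runs opposite to Tnfsf13, and Gm16008 and Gm11110 run opposite to exons of Tnfrsf18 and Tnfsf9, and whether counting used the strand is not stated in the sources. Tnfsf13os was measured at 0.345 and 0.688 RPKM against 0.440 and 0.716 RPKM and was not called. Tnfrsf10b shares stretches of at least 95% identity with 4 other annotated transcripts, Gm15574 among them. Tnfsf11, Tnfrsf1a and Tnfrsf1b had no such overlap or copy.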

How the data were processed

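The authors deposited RPKM values in 1 table, with a column for each library. Total RNA was made into Illumina TruSeq libraries, and mm8 and Bowtie 0.12.2 appear in the processing notes of the submitters. The sources used here name neither the read counter nor its annotation. The values themselves gave the unit. For 91.0% of the 26767 rows whose symbol matched 1 gene of GENCODE M21, the values fitted the annotated exon length on GRCm38, so positions are on GRCm38, and whole reads were recovered from these lengths. In 4249 other rows, Fas, Tnfsf9, Tnfsf14, Tnfrsf12a, Tnfrsf13c and Tnfrsf21 among them, the smallest whole numbers in the proportion of the values were taken, which can understate the reads by a whole factor. RPKM is not corrected for composition between libraries. Log2(RPKM + 0.1) was fitted with limma 3.58.1 (trend) in R 4.3.3, with genotype as the only term, on genes that reached 0.5 RPKM in at least 2 libraries, and p-values were adjusted over all 15528 genes (Benjamini-Hochberg, two-sided). A fold change on this scale understates changes of low genes. With 2 libraries a group, the spread of each gene was moderated towards that of genes of like level. Read ratios carry exact 95% Clopper-Pearson intervals, which cover counting error only.

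The members and gene lists were chosen with earlier results of these data known. Named with the value in every library were called members, members with at least a 2-fold difference and no overlap, and Tnf, Fas, Tnfsf10, Tnfsf11, Tnfrsf11a, Tnfrsf11b and Tnfrsf1a. The 3 most abundant ligands and 5 most abundant receptors were named as well, and other members by range. Of each pathway list, up to 6 called genes with the smallest p and up to 2 abundant ones not called were named. A few more were chosen after their values were seen (Fasl, Rel, Bcl3, Lgr4, Pgr, Vdr, Adam17, neighbours of called members and single low members). The fit was repeated with pseudocounts of 1 and 0.01, without a filter, with at least 1 RPKM in every library, at least 10 reads in at least 2 libraries, median-of-ratios scaling, voom on recovered reads with TMM factors, the replicate number as a block, robust moderation and each library left out. The fit was also run on simulated data that had the same setting for spread in every gene. Its outcome is not given, and no result above rests on it. Similar transcripts were searched with BLAST 2.17.0, and tables and plots were made with Python 3.11.15, pandas 2.3.3, scipy 1.17.1 and matplotlib 3.10.9.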

Additional observations from a re-analysis of the deposited data

How the results depend on the processing

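Of the calls, 3 members lower and 0 higher, the number lower was 2 to 4 in the 9 alternatives that kept all libraries, and 0 members were higher in each. With 1 library left out, 0 to 1 members, 0 to 45 of all genes higher, 0 to 53 of all genes lower, 0 pathway genes higher and 0 to 1 lower were called, although 3 to 6 members and 4075 to 4357 genes had an unadjusted p under 0.05. A library that is alone in its group was then assumed to vary like the other group. Over all genes, 1193 were called higher and 1711 lower, against 410 and 544 without a filter and 2381 higher with voom. Median-of-ratios scaling shifted log2 fold changes by 0.04 and split the calls into 1627 higher and 1353 lower. Pathway genes called higher, 3 in the main analysis, numbered 0 without a filter, 5 when every library had to reach 1 RPKM, 6 with at least 10 reads in at least 2 libraries, 7 with median-of-ratios scaling and 8 with voom. Those called lower, 13 in the main analysis, numbered 4 without a filter and 20 with voom. With the replicate number as a block, 3 members remained lower, and 1 pathway gene was higher and 8 lower. The correlation of deviations of same-numbered libraries was 0.076, so that the numbers were not taken as pairs. Tnfsf11 was not tested with at least 1 RPKM in every library, since it lies below that level in Hdac3cKO. The cause of these differences was not tested. With 2 libraries per group, small changes of low genes could not be detected.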
